A study of Mus musculus with 151 samples.

Results

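The genes described here encode 10 antioxidant enzymes and carriers, Sod1, Sod2, Cat, Gpx1, Gpx4, Prdx1, Prdx2, Prdx5, Gsr and Txn1, chosen by name from the 55291 genes in the count table, and all 10 were found there. They were measured in 151 single mouse hair cells, each picked by hand from the cochlea as a Tdtomato+ cell and turned into a full-length cDNA library. The 3 groups were 55 P14_WT IHCs and 50 P30_WT IHCs, inner hair cells (IHCs) from C57BL/6 mice of genotype vGlut3-P2A-iCreER/+; Ai9/+ at postnatal day 14 or 30, and 46 P14_iOHCs, which are IHC-derived cells from vGlut3-P2A-iCreER/+; Tbx2 flox/-; Ai9/+ mice at postnatal day 14, in which loss of the transcription factor Tbx2 turned IHCs toward the outer hair cell (OHC) type. Mice of every group received tamoxifen as neonates, and every group carried the inducible Cre knocked into the vGlut3 (Slc17a8) locus together with the Ai9 reporter, so the controls had both as well. The Cre is active where Slc17a8 is used, that is in IHCs. iOHCs were taken by their smaller size, and larger Tdtomato+ cells of the same cochleae, which kept the look of IHCs, were not picked.

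The labels name no mouse for any cell. Cells are not replicates, so each group counts here as 1 sample. No test was possible, no p-value is given, and every SD below is the spread between cells. Differences between groups are given as the log2 ratio of the mean CPM (counts scaled to a total of 1000000 in each cell) over cells.

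Cells that respire make superoxide, chiefly in mitochondria. Superoxide dismutases turn it into hydrogen peroxide, which catalase, glutathione peroxidases and peroxiredoxins reduce to water, and thioredoxin, glutathione and glutathione reductase carry the electrons from NADPH that restore the spent enzymes. Hair cells are damaged by oxidants under noise and aminoglycoside antibiotics, and OHCs are known to be lost more readily than IHCs.

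Library totals ran from 4326416 to 25035444 counts and fell into a lower set of 51 cells, at or under 10267217, and an upper set of 100 cells, at or over 11814928. The lower set held 16 P14_WT IHCs, 12 P14_iOHCs and 23 P30_WT IHCs. It followed the cell numbers in the labels, being cells 1 to 16 of the P14_WT IHCs, cells 1 to 23 of the P30_WT IHCs and 12 of the P14_iOHCs numbered up to 18, and the labels do not say whether these were separate rounds of picking or sequencing. Genes of the mitochondrial genome took 6.54% ± 3.24 (SD, 55 cells) of counts in P14_WT IHCs, 6.24% ± 1.65 (46 cells) in P14_iOHCs and 9.35% ± 4.94 (50 cells) in P30_WT IHCs. The labels held up in most cells. Slc26a5, which encodes the OHC motor protein Prestin, was at 142 to 2787 CPM in P14_iOHCs and at most 4.01 CPM in P14_WT IHCs. Tbx2 had a mean of 260 CPM in P14_WT IHCs and 69.3 CPM in P14_iOHCs. In the flox allele only the second exon is flanked by loxP sites, so reads from the rest of that allele remain countable. The paper describes its Tbx2 knockout allele as a germline deletion of the whole locus, which yields no reads. The share of each allele in the lower level was not tested. In 2 P14_iOHCs a summed marker level lay within the range of the P14_WT IHCs, the 5 OHC markers in cell 44 (1552 CPM) and the 5 IHC markers in cell 1 (21158 CPM). Markers of some other cells stood apart too. The 17 supporting-cell markers other than Fbxo2 (Fbxo2 is abundant in the hair cells themselves) summed to a median of 34.4 CPM per cell in P14_WT IHCs, 931 CPM in P14_iOHCs and 106 CPM in P30_WT IHCs, and 16 of 46 P14_iOHCs exceeded every P14_WT IHC. Markers of glia were over a log2 ratio of 1 for 7 of 7 genes in P14_iOHCs (median sum 35.4 CPM per cell, against 0 CPM in P14_WT IHCs), and those of fibroblasts or mesenchyme for 4 of 7, with a sum of up to 4522 CPM in a P14_iOHC against 771 CPM at most in a P14_WT IHC. Of all 18 supporting-cell markers, 16 were over a log2 ratio of 1 in P14_iOHCs, and 0 of the 18 were without a count in that group. Of all tested genes 18.4% were over 1 and 13.2% under -1 in P14_iOHCs. The other lists did not rise in this way. Over 1 and under -1 were 0 and 3 of 8 neuron markers, 1 and 2 of 5 blood markers, and 1 and 3 of 7 immune markers. Of the genes that answer to cell dissociation, 12 of 18 were over a log2 ratio of 1 in P14_iOHCs. In P30_WT IHCs 8 of 18 were, beside 8.83% of all tested genes. Their sum per cell had a median of 8578 CPM in P14_WT IHCs, 7646 CPM in P14_iOHCs and 12058 CPM in P30_WT IHCs. By that sum only the P30_WT IHCs were higher, and the part of these genes in the results was not tested.

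Short stretches of promoter are shown first, because they hold the letters that the regulator of antioxidant genes, Nrf2, and the T-box factors are known to bind. RefSeq promoters of GRCm38.p6, from 250 bases before to 50 bases after each start site, were given for 9 of the 10 genes. They were searched on both strands for the antioxidant response element TGACNNNGC and for the T-box letters GGTGTGA, which do not overlap in the matches. The first was found in 2 of the 9 genes (Prdx1 and Sod1) and in 14.0% of all 27025 genes with a window, the second in 1 of the 9 (Gpx4) and in 4.6% of them. Each match, in capitals, lay on the reverse strand.
Prdx1: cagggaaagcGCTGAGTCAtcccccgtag
Sod1: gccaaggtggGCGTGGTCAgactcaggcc
Gpx4: ttccctgccctTCACACCaggaaaaggaa
The Prdx1 stretch is chr4:116685456-116685484, the Sod1 stretch chr16:90220696-90220724 and the Gpx4 stretch chr10:80047107-80047135, all on the plus strand, and none overlaps an annotated UTR. Neither motif was found in the windows of Prdx5 and Prdx2, the genes that differed most below. A match describes the letters only and shows no binding.

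Within P14_WT IHCs the enzymes lay at very unequal levels. Levels of different genes are compared here per length, as TPM (counts divided by the length of the principal GENCODE transcript and scaled to 1000000 in each cell). The lipid peroxide-reducing enzyme Gpx4 was the most abundant at 1747 ± 401 TPM (SD, 55 cells), followed by the peroxiredoxins Prdx2 at 1145 ± 324 TPM and Prdx5 at 996 ± 290 TPM. Thioredoxin, Txn1, had 755 ± 238 TPM and the cytosolic dismutase Sod1 529 ± 274 TPM. Prdx1, a cytosolic peroxiredoxin, had 339 ± 155 TPM and Gpx1, a peroxidase of soluble peroxides, 274 ± 137 TPM. The mitochondrial dismutase Sod2 (43.4 ± 22.97 TPM), glutathione reductase Gsr (24.9 ± 25.6 TPM) and catalase Cat (12.5 ± 22.8 TPM) made up a low tier. The place of Sod2 rests on its principal transcript length of 5861 bases, against 1072 for Gpx1. Before division by length their means were near each other, at 148 and 171 CPM. Of the 9 steps in this order, those from Gpx4 to Prdx2 and from Gpx1 to Sod2 were larger than the spread between cells, and the other neighbours were not separated by their spread. By mean TPM 99.9% of genes lay below Gpx4, 99.8% below Prdx2 and 88.4% below Cat.

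The order differed between the groups. In P14_iOHCs Gpx4 (1998 ± 769 TPM) was followed by Prdx5 (1557 ± 575 TPM), Txn1 (715 ± 258 TPM) and Prdx2 (658 ± 247 TPM), and here the step from Prdx5 to Txn1 exceeded the spread whereas that from Gpx4 to Prdx5 did not. In P30_WT IHCs Gpx4 (1378 ± 417 TPM) was followed by Sod1 (814 ± 266 TPM), Txn1 (608 ± 269 TPM), Prdx2 (590 ± 230 TPM) and Prdx5 (418 ± 205 TPM). Sod2, Gsr and Cat held the lowest 3 places in all groups. With the union of all exons as the length, Sod1 (641 bases of principal transcript, 3970 of union) dropped to rank 7 in all groups. Gpx4 stayed at rank 1 and Cat at rank 10. Txn1 then moved to rank 2 in P14_WT IHCs (1075 TPM), above Prdx2 (863 TPM) and Prdx5 (837 TPM). In P30_WT IHCs Txn1 also took rank 2, and in P14_iOHCs it stayed at rank 3.

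The first comparison, P14_iOHCs against P14_WT IHCs, asks what happens to these genes when IHCs lose Tbx2. It joins the germline loss of an allele with the neonatal deletion of the other, which cannot be told apart here. Most of the set differed little. The filter on low counts asked for 5 or more counts in 10 or more cells of the 2 groups. Of the 13673 genes that passed it, 31.6% were past an absolute log2 ratio of 1 (2-fold) and 13.9% past 2 (4-fold, the study's fold). All 10 antioxidant enzyme genes were among them, and 0 of 10 were past either fold. Their mean was higher for 8 and lower for 2, with a median log2 ratio of 0.18 beside 0.08 over all tested genes and -0.03 over the 2331 genes that averaged 100 CPM or more in either group. Quartiles of the log2 ratio were -0.49 and 0.69 over all tested genes, and -0.43 and 0.43 over those 2331, so the more abundant genes spread less. The direction of the set turned with the summary, since mean log2(CPM + 1) gave 4 higher and 6 lower with a median of -0.03, and mean log2(CPM + 0.1) gave 3 and 7 with a median of -0.09. Only Prdx5 and Prdx2 differed by more than the SD between cells of both groups, in opposite directions. Summed over the 10 genes, a cell held 4277 ± 652 CPM in P14_WT IHCs and 4710 ± 853 CPM in P14_iOHCs, a difference within the spread.

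**Figure D1:**
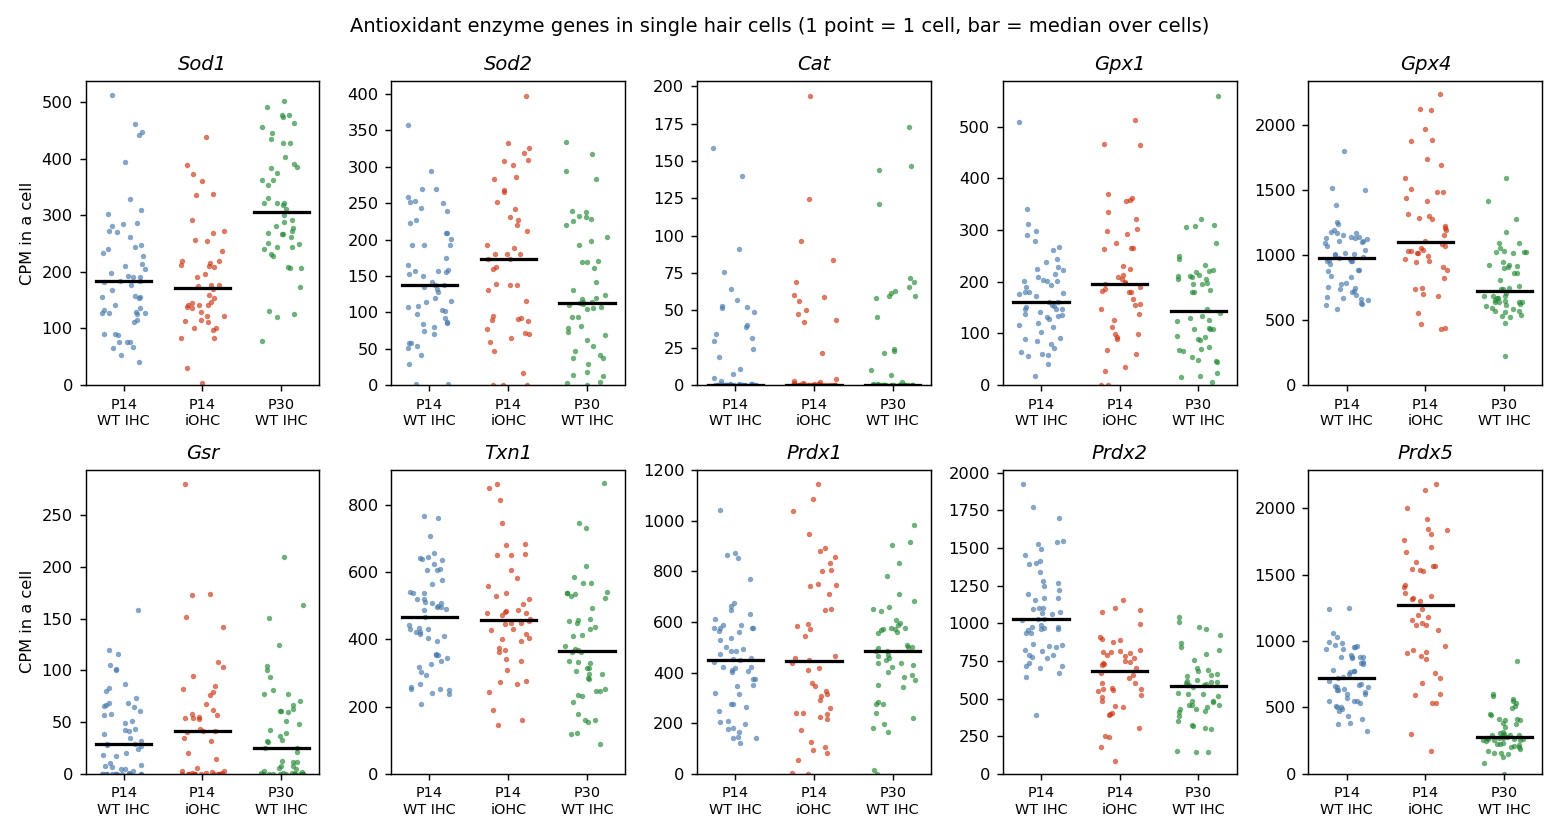
CPM of each of the 10 genes (vertical axes, linear, each panel with its own scale) in every cell (points, spread sideways at random) of P14 WT IHCs (55), P14 iOHCs (46) and P30 WT IHCs (50), with the median as a bar. Prdx5 is highest in P14 iOHCs and lowest in P30 WT IHCs, Prdx2 is highest in P14 WT IHCs, Sod1 is highest in P30 WT IHCs, and Cat lies near 0 in most cells of each group.

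Prdx5 encodes a peroxiredoxin found in mitochondria, peroxisomes and the cytosol. The gene lies at chr19:6906697-6910106 on the minus strand of GRCm38 with 3 merged exons. In P14_WT IHCs it had a lowest level of 325 CPM, a median of 718 CPM and a highest of 1247 CPM, and in P14_iOHCs a lowest of 172 CPM, a median of 1270 CPM and a highest of 2182 CPM. Of the 46 P14_iOHCs, 39 were above the P14_WT IHC median and 23 above the highest P14_WT IHC, so the groups overlapped in their lower part. The means were 732 ± 214 CPM (SD, 55 cells) and 1245 ± 484 CPM (46 cells), 1.70-fold higher in P14_iOHCs (log2 ratio 0.77). Of all tested genes 59.5% had a smaller absolute ratio. Among the 2331 genes that averaged 100 CPM or more in either group the upper quartile was 0.43, under the value of Prdx5. Counting error was small beside the spread of cells, with exact 95% Poisson intervals of 745 to 748 CPM and 1250 to 1255 CPM around the levels pooled over cells (intervals cover counting error only). The log2 ratio was 0.72 within the lower set of totals and 0.78 within the upper set.

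Prdx2, a cytosolic peroxiredoxin that thioredoxin reduces, went the other way. It lies at chr8:84969587-84974834 on the plus strand with 6 merged exons. Its lowest, median and highest levels were 393, 1028 and 1929 CPM in P14_WT IHCs and 82.5, 686 and 1152 CPM in P14_iOHCs. All but 4 of the 46 P14_iOHCs were below the P14_WT IHC median and 6 were below the lowest P14_WT IHC. The means were 1077 ± 312 CPM and 661 ± 248 CPM, 1.63-fold lower in P14_iOHCs (log2 ratio -0.70).

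The opposed shifts of Prdx5 and Prdx2 showed within single cells, where the scaling of a library cancels. Per length, Prdx5 exceeded Prdx2 in 22 of 55 P14_WT IHCs, in 40 of 46 P14_iOHCs and in 8 of 50 P30_WT IHCs. The median ratio of Prdx5 to Prdx2 was 0.867 in P14_WT IHCs (range 0.345 to 1.75), 2.37 in P14_iOHCs (0.3904 to 17.6) and 0.669 in P30_WT IHCs (0 to 1.99). This ratio thus spread most widely in P14_iOHCs.

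**Figure D2:**
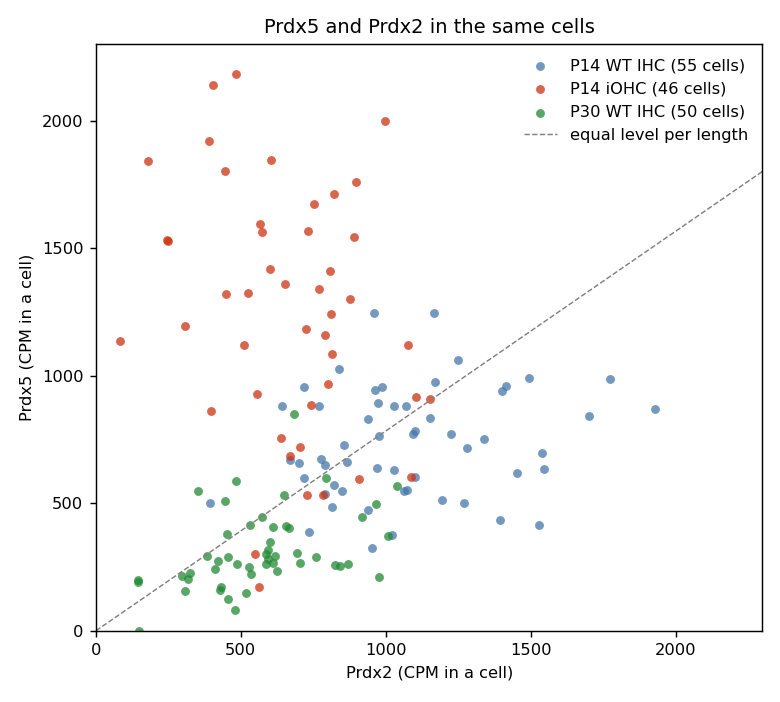
Prdx5 (vertical axis, CPM in a cell) against Prdx2 (horizontal axis, CPM in a cell), 1 point for each cell, coloured by group, with a dashed line where the 2 genes have the same level per length. P14 iOHCs lie above the line in 40 of 46 cells, and P30 WT IHCs lie below it in 42 of 50 cells at low levels of both genes.

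The other genes differed by less than the spread between cells. Gpx4 had lowest, median and highest levels of 585, 981 and 1802 CPM in P14_WT IHCs and 433, 1100 and 2240 CPM in P14_iOHCs, with 6 of 46 P14_iOHCs above every P14_WT IHC (log2 ratio 0.29). Gpx1 had medians of 161 and 196 CPM (log2 ratio of means 0.30) and ranged from 0.122 to 513 CPM in P14_iOHCs. Txn1 was nearly level between the groups, with medians of 467 and 459 CPM (log2 ratio 0.03). Prdx1 had medians of 450 and 446 CPM, but its P14_iOHCs were wide-ranging, from 0.540 to 1145 CPM, with 6 below and 2 above every P14_WT IHC (log2 ratio 0.11). For the dismutases the medians were 183 and 172 CPM for Sod1 (log2 ratio -0.08) and 137 and 173 CPM for Sod2 (log2 ratio 0.21).

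Cat and Gsr were seen in only part of the cells. The binomial intervals given here treat cells as independent draws and do not cover differences between mice. Counts of Cat were present in 29 of 55 P14_WT IHCs (52.7%, exact 95% binomial interval 38.8 to 66.3) and 24 of 46 P14_iOHCs (52.2%, 36.9 to 67.1), with medians of 0.129 and 0.130 CPM and highest values of 159 and 194 CPM. Counts of Gsr were present in 42 of 55 (76.4%, 63.0 to 86.8) and 37 of 46 (80.4%, 66.1 to 90.6), with medians of 28.53 and 40.998 CPM. When every cell was thinned to 4326416 counts, Cat had counts in 26 of 55 and 22 of 46 cells and Gsr in 42 of 55 and 37 of 46. The log2 ratios of the means were 0.15 for Cat and 0.38 for Gsr, and the SDs between cells were larger than the differences.

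**Figure D3:**
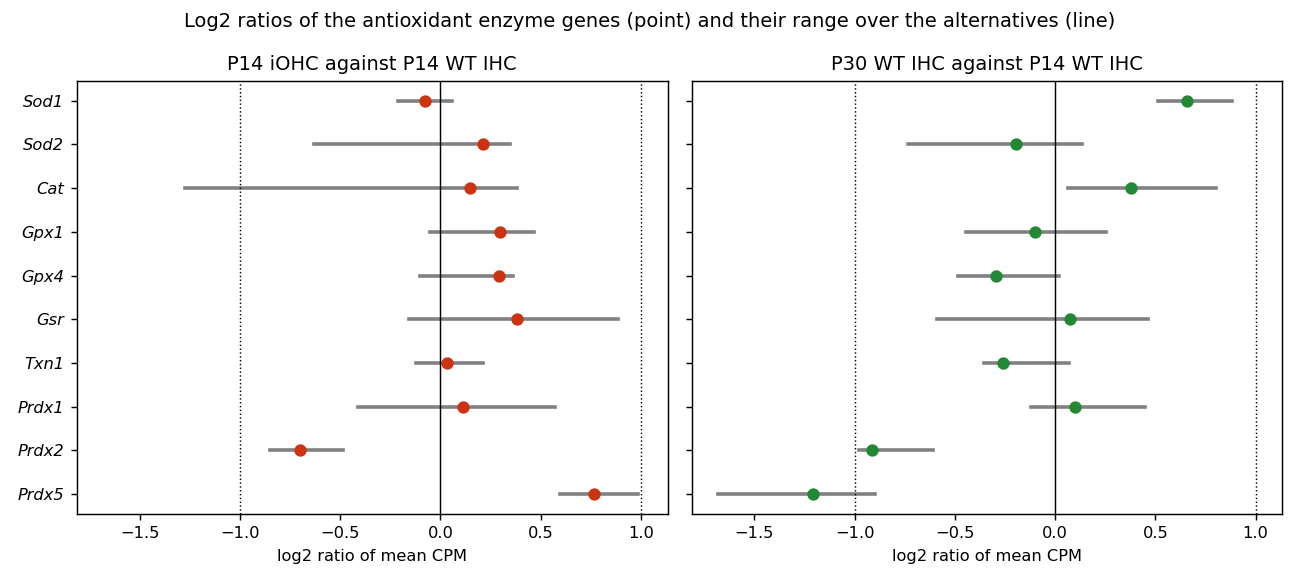
Log2 ratio of mean CPM (horizontal axes) for each gene in P14 iOHCs against P14 WT IHCs (left) and in P30 WT IHCs against P14 WT IHCs (right). Points are the reported values, grey lines run from the lowest to the highest value over the alternative settings, and dotted lines mark 1 and -1. The lines of Prdx5 and Prdx2 stay clear of 0 in both comparisons, as does that of Sod1 in the second, while those of the other genes cross 0, except that of Cat on the right (0.06 to 0.80).

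Within P14_iOHCs, several of these genes moved with markers of supporting cells. Spearman's rho with the summed supporting-cell markers over 46 cells (which share the picking and library steps) was 0.70 for Gpx4, 0.63 for Prdx1 and 0.51 for Cat, and -0.30 for Prdx5. In P14_WT IHCs (55 cells) the same values were 0.26, 0.19, 0.05 and -0.07. Gpx4, Prdx1 and Cat also moved with each other in P14_iOHCs, with rho of 0.65 for Gpx4 and Prdx1, 0.57 for Cat and Prdx1 and 0.48 for Cat and Gpx4. The same genes moved with the number of detected genes in P14_iOHCs, with rho of 0.58 for Cat, 0.51 for Gpx4, 0.51 for Prdx1 and -0.36 for Prdx5, and the part of either measure was not tested. Over all 45 pairs of the 10 genes in that group the median rho was near 0 and the lowest was -0.32, for Prdx1 and Prdx5.

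Without the 16 P14_iOHCs that exceeded every P14_WT IHC in these markers, the log2 ratios became -0.03 for Gpx4, -0.41 for Prdx1 and -0.91 for Cat, so their small positive values rest on those cells. Prdx5 and Prdx2 then lay farther from 0, at 0.91 and -0.83. Among the 8 P14_iOHCs and 28 P14_WT IHCs at or under the P14_WT IHC median of the markers, Prdx5 had a log2 ratio of 0.70 and Prdx2 of -0.85, and Cat (-1.27) was then past a log2 ratio of 1.

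Prdx5 moved with the Prestin gene. Over the 46 P14_iOHCs its rho with Slc26a5 was 0.56, and it was -0.43 with Tbx2. For the other 9 genes rho with Slc26a5 lay between -0.33 (Prdx2) and 0.17 (Txn1). Cells 23, 28, 40 and 43, with supporting-cell marker sums of 8214 to 10728 CPM, were low in both genes. They had 262 to 433 CPM of Slc26a5 and 302 to 601 CPM of Prdx5. Cell 10, with a sum of 9115 CPM, had 1123 and 1084 CPM. The part of supporting-cell RNA in this rho was not tested. The lowest Prdx5 level of the group, 172 CPM, was that of cell 44, which also had the lowest Slc26a5 (142 CPM). Without cells 1 and 44 the log2 ratio of Prdx5 was 0.81 and that of Prdx2 -0.70.

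**Figure D4:**
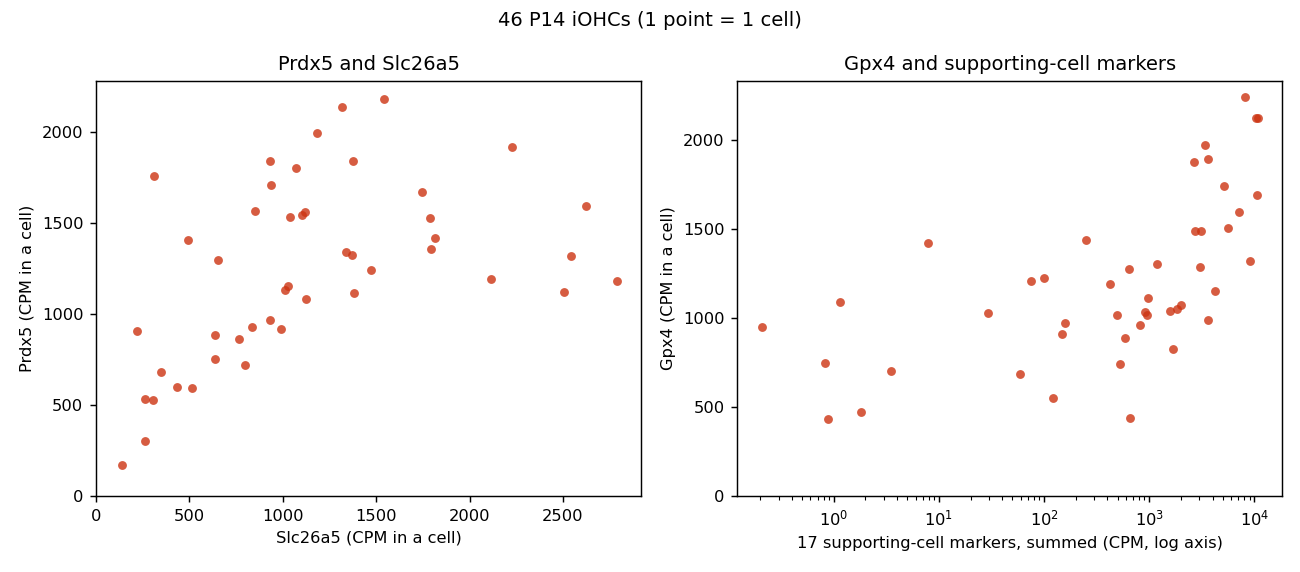
Left, Prdx5 (CPM) against Slc26a5 (CPM); right, Gpx4 (CPM) against the sum of 17 supporting-cell markers (CPM, log axis), 1 point for each of 46 P14 iOHCs. Most cells with little Slc26a5 have little Prdx5, although some reach high Prdx5, and Gpx4 is highest in the cells with the most supporting-cell marker counts.

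By Spearman's rho over the 101 P14 cells, and among 9529 genes that averaged 10 CPM or more in either group, the genes most like Prdx5 were Sh3gl3 (0.67), Hsd11b1 (0.67), Gm45716 (0.67), St8sia5 (0.66) and Mtpn (0.66). Sh3gl3 encodes an endophilin of membrane traffic, Hsd11b1 an enzyme of glucocorticoid activation, St8sia5 a sialyltransferase and Mtpn myotrophin. Sh3gl3 had a mean of 531 CPM in P14_iOHCs and 22.1 CPM in P14_WT IHCs, and Mtpn 1277 and 639 CPM. Within P14_iOHCs alone rho was 0.59 for Sh3gl3, 0.53 for Hsd11b1, 0.42 for Gm45716, 0.58 for St8sia5 and 0.61 for Mtpn. Within P14_WT IHCs alone it was 0.17 for Sh3gl3, 0.35 for Gm45716, 0.07 for St8sia5 and 0.13 for Mtpn. Hsd11b1 had no value there, since its mean was 0 CPM. The rho over the 101 cells thus includes the difference between the groups.

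The second comparison, P30_WT IHCs against P14_WT IHCs, describes the same genes as IHCs mature, and it shares its P14_WT IHCs with the first. Prdx5 and Prdx2 were both lower and Sod1 was higher at day 30. Of 12946 tested genes 19.2% were past an absolute log2 ratio of 1 and 5.31% past 2. Of the 10 antioxidant enzyme genes, which all passed the filter, 1 was past 1 (Prdx5) and 0 past 2, a share below the background for the smaller fold. Means were higher for 4 and lower for 6, with a median log2 ratio of -0.15 beside -0.03 over all tested genes. With DESeq2 size factors, which raise the median of all genes by 0.33, 8 were higher and 2 lower (Prdx5 and Prdx2), with a median of 0.18. Summed over the 10 genes a P30_WT IHC held 3222 ± 767 CPM, against 4277 ± 652 CPM in P14_WT IHCs.

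Prdx5 in P30_WT IHCs had a lowest level of 0 CPM, in cell 23, a median of 276 CPM and a highest of 848 CPM. All but 1 of the 50 cells lay below the P14_WT IHC median of 718 CPM, and 33 lay below the lowest P14_WT IHC. The mean was 316 ± 154 CPM (SD, 50 cells), 2.31-fold lower than in P14_WT IHCs (log2 ratio -1.21), and 85.6% of tested genes had a smaller absolute ratio. The size differed between the sets of totals, with a log2 ratio of -1.68 within the lower set of totals (216 ± 80.5 CPM in 23 P30_WT IHCs, 692 ± 192 CPM in 16 P14_WT IHCs) and -0.90 within the upper set (402 ± 151 CPM in 27 and 748 ± 223 CPM in 39). Over the 50 P30_WT IHCs rho of Prdx5 was 0.60 with the total count and -0.56 with the mitochondrial share, both of which differ between the age groups. Thinning every cell to the same total left the log2 ratio at -1.22. Random thinning keeps the CPM of each cell on average, so this value cannot decide whether depth plays a part. The part of the total count, of the sets and of the mitochondrial share was not tested.

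Prdx2 at day 30 ranged from 144 to 1039 CPM with a median of 581 CPM, and 49 of 50 cells were below the P14_WT IHC median. Its mean of 571 ± 217 CPM was 1.89-fold lower (log2 ratio -0.92), with -0.97 within the lower set of totals and -0.78 within the upper set. It moved with Prdx5 across these cells (rho 0.48, 50 cells) and, like it, with the total count (0.53) and the mitochondrial share (-0.49).

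Sod1, the copper and zinc dismutase of the cytosol, lies at chr16:90220754-90226329 on the plus strand with 3 merged exons. It ranged from 40.7 to 512 CPM with a median of 183 CPM in P14_WT IHCs and from 78.1 to 502 CPM with a median of 306 CPM in P30_WT IHCs. Of the 50 P30_WT IHCs 45 were above the P14_WT IHC median, while the ranges overlapped throughout. The mean was 315 ± 106 CPM against 199 ± 108 CPM, 1.58-fold higher (log2 ratio 0.66), and 0.65 and 0.70 within the lower and upper sets of totals. Unlike Prdx5 and Prdx2, it hardly moved with the total count (rho 0.06) or the mitochondrial share (-0.05). Its copper chaperone Ccs was 2.03-fold lower on average (135 against 273 CPM, log2 ratio -1.02), and stood at 166 CPM in P14_iOHCs (log2 ratio -0.72).

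The remaining genes stayed within the spread between cells. Log2 ratios were -0.30 for Gpx4, -0.26 for Txn1, -0.20 for Sod2, -0.10 for Gpx1, 0.08 for Gsr, 0.10 for Prdx1 and 0.38 for Cat. Cat had counts in 33 of 50 P30_WT IHCs (66.0%, exact 95% binomial interval 51.2 to 78.8) against 29 of 55 P14_WT IHCs. The interval treats cells as independent draws and does not cover differences between mice. P30_WT IHCs were below every P14_WT IHC in 9 of 50 cells for Gpx4 and in 7 of 50 for Txn1.

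The rest of the antioxidant pathway was read from 63 other genes in 11 lists. In P14_iOHCs 50 were tested, of which 9 were over a log2 ratio of 1, 6 under -1, 8 over 2 and 0 under -2, with a median of -0.04. Of all tested genes 18.4% were over 1, 13.2% under -1, 8.74% over 2 and 5.12% under -2. In P30_WT IHCs 46 were tested, 2 over 1, 6 under -1, 2 over 2 and 2 under -2, with a median of -0.13. Of all tested genes 8.83% were over 1, 10.4% under -1, 2.26% over 2 and 3.06% under -2.

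Among the peroxidases the highest level was that of Gpx2, a glutathione peroxidase best known from gut epithelium. It ranged from 1662 to 6792 CPM in P14_WT IHCs, from 1562 to 16696 CPM in P14_iOHCs and from 1017 to 9102 CPM in P30_WT IHCs, with counts in every cell. Its means were 3882 ± 1108, 6503 ± 2570 and 5171 ± 1497 CPM (log2 ratios 0.74 and 0.41), and its 6247 ± 1801 TPM in P14_WT IHCs exceeded those of Gpx4 in 55 of 55 cells. Gpx8, a peroxidase of the endoplasmic reticulum, had a mean of 23.7 CPM in P14_iOHCs (counts in 26 of 46 cells) and 2.82 CPM in P14_WT IHCs (6 of 55), a log2 ratio of 3.07. Gpx3, a secreted peroxidase, was 2.03-fold lower (11.9 against 24.3 CPM). Prdx4, the endoplasmic reticulum peroxiredoxin, was at 10.5 against 2.52 CPM, a log2 ratio of 2.06, while Prdx6 was at 217 against 257 CPM. By CPM Prdx6 was the highest of the list of peroxiredoxins and sulfiredoxin, which leaves out Prdx1, Prdx2 and Prdx5.

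Of the 5 tested genes of glutathione synthesis and cystine uptake, 4 were lower in level in P14_iOHCs and 1 higher, with 2 under a log2 ratio of -1 and 1 over 1. Gclc, the catalytic subunit of the rate-limiting enzyme, had a mean of 14.7 CPM (counts in 27 of 46 cells) against 47.3 CPM (46 of 55), a log2 ratio of -1.69, and its partner Gclm 48.4 against 81.1 CPM. Gss, which completes glutathione, was 2.01-fold lower (27.4 against 54.9 CPM). In P30_WT IHCs Gclc was also lower, at 20.2 CPM (26 of 50 cells, log2 ratio -1.23). The SD between cells exceeded the mean for Gclc in every group, 62.7 CPM in P14_WT IHCs.

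Genes that use glutathione or supply NADPH differed in both directions. Gstm1, a glutathione transferase, was at 50.2 CPM in P14_iOHCs, 63.0 CPM in P30_WT IHCs and 6.88 CPM in P14_WT IHCs (log2 ratios 2.87 and 3.20), whereas Gsta4, the most abundant transferase, was at 214, 320 and 381 CPM. Mgst1, a membrane transferase that did not pass the filter, had 11173 counts in 16 of 46 P14_iOHCs and 3 counts in 2 of 55 P14_WT IHCs. G6pdx, the first enzyme of the pentose phosphate path, was 2.04-fold higher in P14_iOHCs (267 against 131 CPM), but its log2 ratio ranged from -0.50 to 1.19 over the alternatives. Nnt, the mitochondrial transhydrogenase, was 2.42-fold lower (15.1 against 36.6 CPM) and Me1, the highest of the list, nearly level (397 against 407 CPM). Idh1, another source of NADPH, was 2.03-fold lower in P30_WT IHCs (105 against 212 CPM).

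**Figure D5:**
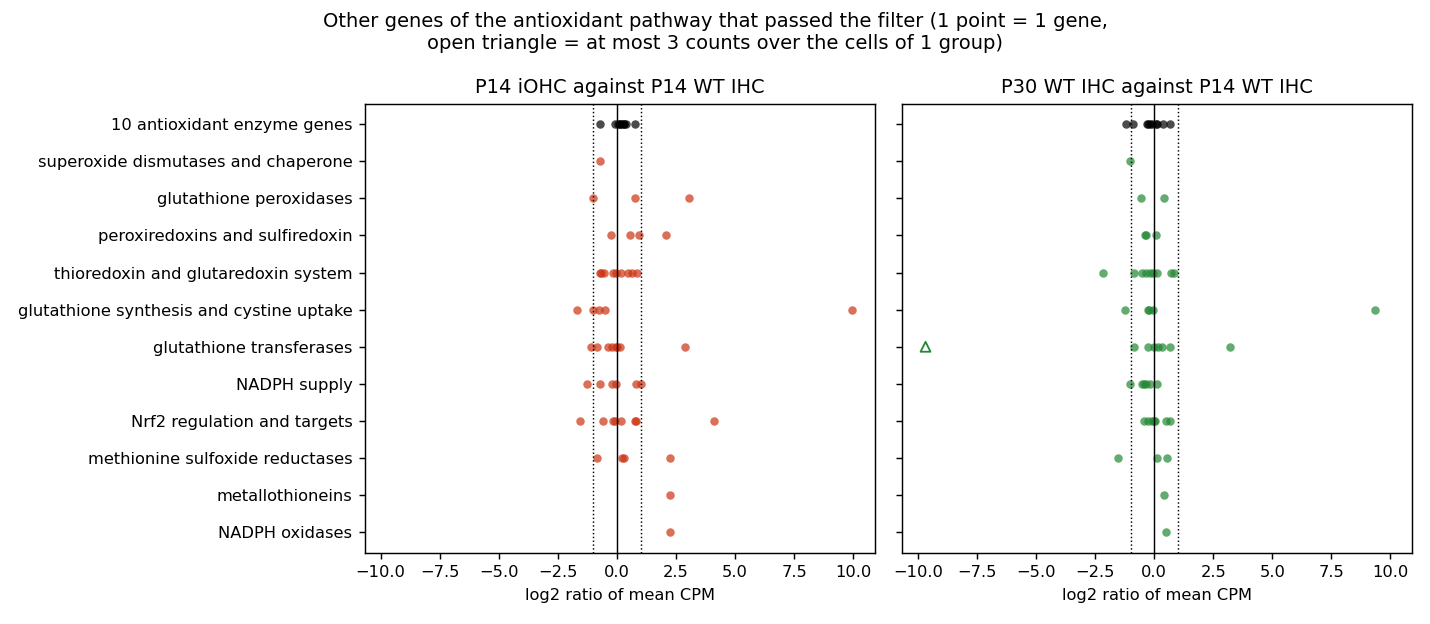
Log2 ratio of mean CPM (horizontal axes) of the tested genes of 11 antioxidant pathway lists and, on the top line, of the 10 antioxidant enzyme genes (black), in P14 iOHCs (left) and P30 WT IHCs (right) against P14 WT IHCs. Dotted lines mark 1 and -1, and the open triangle is a gene with at most 3 counts in the P30 WT IHCs. The black points lie between -0.70 and 0.77 on the left, while 9 of 50 pathway genes lie over 1 and 6 of 50 under -1.

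In the thioredoxin and glutaredoxin list 0 of 9 genes were past a log2 ratio of 1 in P14_iOHCs, and Glrx5, its highest member by CPM, was at 211 against 312 CPM. Glrx, a cytosolic glutaredoxin, was the only member of that list past the fold in P30_WT IHCs, at 3.26 against 14.8 CPM (log2 ratio -2.19). Msrb2, a mitochondrial methionine sulfoxide reductase, was at 11.2 against 32.8 CPM in P30_WT IHCs (log2 ratio -1.55), while Msrb3, the highest of its list, was at 293 against 267 CPM. Park7, the highest of the Nrf2 list by CPM in P14_WT IHCs, was at 254 CPM in P14_iOHCs, 261 CPM in P30_WT IHCs and 266 CPM in P14_WT IHCs. Mt1, a metal-binding metallothionein, was 4.70-fold higher in P14_iOHCs (95.2 against 20.2 CPM, counts in 36 of 46 and 18 of 55 cells). Nox4, the highest of the NADPH oxidase list by CPM in P14_WT IHCs (1.95 CPM), did not pass the filter and had counts in 2 of 55 P14_WT IHCs, 8 of 46 P14_iOHCs and 0 of 50 P30_WT IHCs. The only gene of that list tested in P14_iOHCs was Cyba, a subunit of the oxidase complex named here after its values were seen. It was at 8.87 against 1.89 CPM in P14_iOHCs (log2 ratio 2.23). Over the alternatives the log2 ratio in P14_iOHCs ran from 0.54 to 3.69 for Gpx8, from 0.31 to 4.05 for Mt1 and from 2.01 to 4.35 for Gstm1. Alternatives brought some pathway genes under the 2-fold mark, in P14_iOHCs Gpx3 (-1.72 to -0.29), Gss (-1.93 to -0.70), Prdx4 (0.91 to 2.36) and Cyba (0.82 to 3.05), and in P30_WT IHCs Ccs (-1.86 to -0.75), Gclc (-8.84 to -0.53), Idh1 (-2.60 to -0.58) and Msrb2 (-3.11 to -0.44).

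Some reads could not be placed with certainty. Counting was not stated to use strand, and 19.1% of the exon bases of Prdx5 lie opposite Trmt112, which itself had a mean of 109 CPM in P14_WT IHCs and 98.1 CPM in each of the other groups. Prdx2 shares 177 exon bases with Rnaseh2a and 173 with Junb on the opposite strand, and Junb had a mean of 96.0 CPM in P14_WT IHCs, 284 CPM in P14_iOHCs and 190 CPM in P30_WT IHCs. The long exon model of Sod2 shares 3110 bases at 98.3% identity with Rps6ka2 (441 CPM in P14_WT IHCs, 27.2 CPM in P14_iOHCs), so its values are uncertain. Near-identical copies of Sod1, Prdx1, Prdx2 and Txn1 held under 0.1% of the level of the gene, and that of Gpx4 held 1.16%.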

How the data were processed

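Single-cell libraries were made with Smart-Seq HT after dissociation in a solution that contained antioxidants (ascorbate, thiourea and N-acetyl-L-cysteine) in all groups, which bears on genes that answer to oxidants. The deposited table holds raw counts per gene and cell, made by the authors on mm10. Their processing notes name Trimmomatic 0.39, FastQC 0.11.9, HISAT2 2.1.0, HTSeq 0.10.0 and StringTie 1.3.5. The annotation release, strand setting and treatment of multiply mapped reads are not given in the sources used here.

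From the counts, CPM was computed on each cell's total, and the log2 ratio of mean CPM over cells for every gene, with a floor of 3 counts over a group. The study tested cells with DESeq2. That was not followed, since the labels name no animal. No pair of libraries within a group was identical (0 of 3745 pairs). The filter asked for 5 counts in 10 cells. Scaling alternatives used edgeR 4.0.16 (TMM) and DESeq2 1.42.0 (size factors), with SciPy 1.17.1 for intervals and BLAST 2.17.0 for copies. TPM used GENCODE M21 lengths on GRCm38. The ratio was also computed on simulated cells with known folds, for genes at 10 CPM or more. That simulation did not model genes seen in only part of the cells, so it does not cover Cat and Gsr.

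The genes and lists were chosen with earlier results of these data known. Named were all 10 genes, pathway genes past a log2 ratio of 1 with at least 10 CPM in either group, the highest of each list, and the 5 genes most like the member with the largest ratio in P14_iOHCs. WT OHCs are not analysed here.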

Additional observations from a re-analysis of the deposited data

How the results depend on the processing

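Prdx5 and Prdx2 kept their direction in all 16 alternatives for P14_iOHCs and all 15 for P30_WT IHCs. Log2 ratios ran from 0.60 to 0.99 and from -1.68 to -0.90 for Prdx5, and from -0.85 to -0.49 and from -0.98 to -0.61 for Prdx2. Sod1 (0.51 to 0.88) and Cat (0.06 to 0.80) kept theirs for P30_WT IHCs. Every other gene changed sign under at least 1 alternative in each comparison, down to -1.27 for Cat in P14_iOHCs. All 310 gene values moved by less than the spread between cells. Alternatives based on supporting-cell markers other than Fbxo2, and that without cells 1 and 44, were chosen after seeing the data. Among cells at or under the P14_WT IHC median of those markers, 1 member (Cat) was past a log2 ratio of 1 in P14_iOHCs in place of 0. In P30_WT IHCs, 0 members in place of 1 were past it with DESeq2 size factors and in the upper set of totals. Without a filter on low counts, 9069 genes in place of 1895 were past a log2 ratio of 2 in P14_iOHCs and 13377 in place of 4326 past 1, and 7041 in place of 688 and 11137 in place of 2484 in P30_WT IHCs, as genes with a few counts then enter.

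DESeq2 size factors shifted the median log2 ratio of all genes by 0.11 in P14_iOHCs and 0.33 in P30_WT IHCs. In P30_WT IHCs 69.3% of calls past 1 were then higher in place of 46.05%, and the cause was not tested. Relative to that shift Prdx5 and Prdx2 remained lower. No paired analysis was possible because the number in a label only names a cell and no test was run. Thinned to the lowest total, Gsr had counts in as many P14 cells as before and Cat in slightly fewer. The unknown number of mice limits every comparison.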

Other observations

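Slc7a11, which imports cystine for glutathione synthesis, falls outside the naming rule and was chosen after its values were seen. It had 4 counts in 4 of 55 P14_WT IHCs, but 4575 counts in 40 of 46 P14_iOHCs (mean 5.33 CPM) and 3165 counts in 28 of 50 P30_WT IHCs (3.52 CPM), a low level in both. Hmox1, an Nrf2 target that degrades haem, was likewise at 5.82 CPM in P14_iOHCs with counts in 10 of 46 cells, against 0.339 CPM with counts in 5 of 55 P14_WT IHCs. Nqo1, another Nrf2 target, was at 0.922 against 2.71 CPM, with counts in 7 of 46 and 9 of 55 cells. Over the alternatives the log2 ratio in P14_iOHCs ran from 0.65 to 6.34 for Hmox1. For Nqo1 it ran from -3.61 to 1.38, so its direction was not kept. Hmox1 and Nqo1 also fall outside the naming rule. These values have no test.

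Other mitochondrial partners of Prdx5 and Sod2 were looked at in the same cells. Prdx3, the main peroxiredoxin of mitochondria, had a mean of 113 ± 85.1 CPM (SD, 55 cells) in P14_WT IHCs, 166 ± 131 CPM (46 cells) in P14_iOHCs and 85.5 ± 84.1 CPM (50 cells) in P30_WT IHCs. Txn2, the mitochondrial thioredoxin, had 158 ± 85.9, 176 ± 108 and 110 ± 80.6 CPM. By mean CPM both had the order of groups seen for Prdx5, with differences smaller than the spread between cells. Over the alternatives the log2 ratio in P14_iOHCs ran from 0.27 to 0.81 for Prdx3 but from -0.39 to 0.39 for Txn2. Txnrd2, the mitochondrial thioredoxin reductase, did not have that order, with 30.4 ± 44.7, 19.3 ± 29.3 and 32.6 ± 45.4 CPM. Nnt was lower in P14_iOHCs (15.1 against 36.6 CPM). Sod3, the extracellular dismutase, had counts in 3 of 55, 4 of 46 and 0 of 50 cells.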
